A study of Mus musculus with 5 samples.

Results

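The open chromatin around 10 genes, grouped as macrophage surface and scavenger genes, was followed through blood development. The genes were Cd68, Lyz1, Lyz2, Adgre1, Mrc1, Msr1, Marco, Cd14, Cd36 and Mertk, taken by their RefSeq symbols out of 21774 protein-coding genes. DNaseI hypersensitive sites (DHSs), where chromatin is accessible to cutting by DNase I, went to a gene if they came within 1 kb of any of its annotated transcription start sites (TSS). They also went to it if it was the protein-coding gene with the nearest TSS and they lay inside it or up to 100 kb from its TSS. All 10 genes were found, and 69 of 135173 listed DHSs were theirs. Merging the DHSs of all stages (as windows of 500 bp around the middle, by the study's rule of overlap) gave 53 regions at these genes of 68846 in all.

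The cells were grown in vitro from 1 line of mouse embryonic stem (ES) cells of strain 129, kept on mouse embryonic fibroblast feeders, with a GFP reporter at Brachyury (Bry), a mesoderm gene. DNaseI-seq was carried out on sorted cells of 5 stages. Bry:GFP+ cells lacking Flk1 were taken as mesoderm (MES), and Bry:GFP+ Flk1+ cells as hemangioblasts (HB). Hemogenic endothelium (HE) was Bry:GFP+, Tie2+, cKit+ and CD41-, CD41+ cells were hematopoietic progenitors (HP), and CD11b+ macrophages (MAC) were grown on from CD41+ cells. All stages share the reporter line, but they were reached by successive steps of culture, so that stage and culture cannot be told apart. Each stage had 1 list, although the label of MAC names 2 replicates, so no difference between stages could be set against a spread between replicates and no test between stages was made. The lists held 21949 (MES), 24729 (HB), 33305 (HE), 17734 (HP) and 37456 (MAC) DHSs with start and end only. They carry no read depth, and the read totals that the study gives were not used here. A gene without a DHS had none listed, which does not show that its chromatin was closed, and in such bulk samples a site open in few cells cannot be told apart from one weakly open in many. As a check of the labels, 7 of 8 macrophage marker genes had a promoter DHS in MAC, 6 of them in MAC alone, and Itgam, which encodes the sorted CD11b, was one of these. None of 5 fibroblast markers had a promoter DHS in MAC, against 3 in each of MES, HB and HE and 1 in HP. Over all protein-coding genes the shares with a promoter DHS from MES to MAC were 55.5%, 57.1%, 59.9%, 48.6% and 48.7%. A promoter DHS in MAC alone was found at 1.72% of them. The 3 of 5 fibroblast markers in MES, HB and HE were thus near the share of all genes. From MES to MAC, promoter DHSs were listed at 5, 5, 4, 0 and 1 of 5 mesoderm markers and at 1, 2, 5, 2 and 1 of 5 endothelial markers. The progenitor markers did not single out HP, with 1, 1, 3, 2 and 1 of 5, and 1 of them, Gfi1b, had its promoter DHS in MAC alone.

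Macrophages clear debris, microbes and dying cells. Scavenger receptors such as MSR1, MARCO and CD36 bind modified lipoproteins and microbial surfaces, the mannose receptor MRC1 binds sugars, and MERTK takes up apoptotic cells. What is taken up is degraded in lysosomes, where CD68 is abundant, and lysozyme cuts bacterial cell walls. Enhancers and promoters that drive such genes are usually open to DNase I, and in macrophages they are commonly bound by PU.1 together with C/EBP, AP-1 and RUNX factors.

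The genes had few DHSs before the macrophage stage. MES, HB, HE and HP had 6, 5, 10 and 4 DHSs in total, and MAC had 44. The lists differ in length, and with each list cut to its widest DHSs at the length of the HP list these totals were 3, 3, 5 and 4, and 19 in MAC. All 10 genes had at least 1 DHS in MAC, as did 64.6% of all protein-coding genes. Of the 10, 6 had one in MES (63.8% of all genes) and 6 in HE (69.1%), while 4 had one in HB (65.4%) and 4 in HP (56.8%). The median gene of the 10 had 4.5 DHSs in MAC, with a range of 1 to 9, against a median of 1 over all genes. In the other stages the median was 1 in MES and HE and 0 in HB and HP, and it was 1 over all genes in each of these stages.

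**Figure D1:**
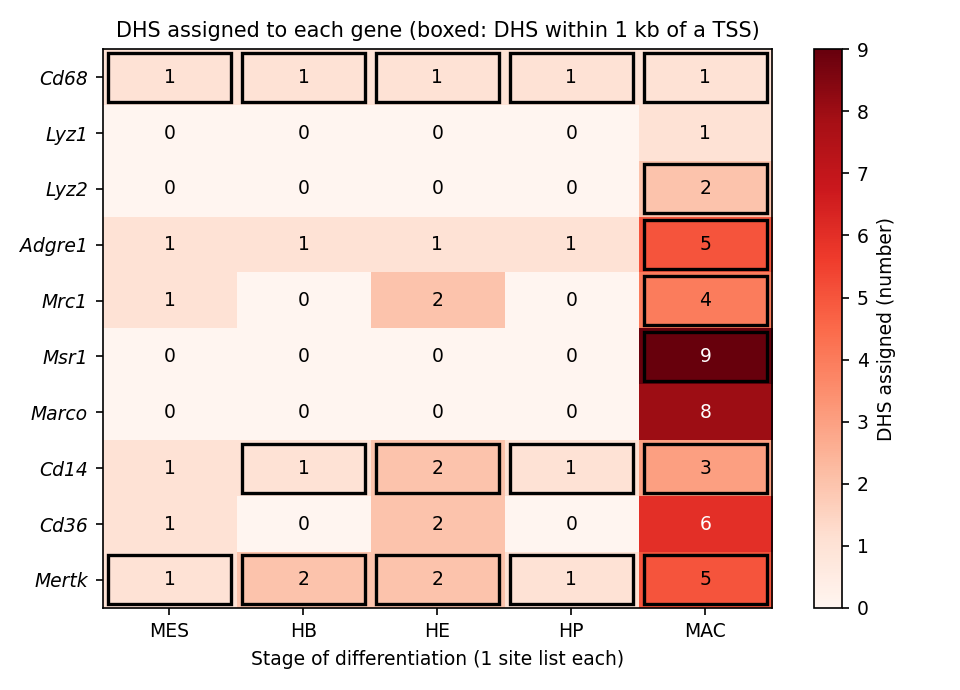
The number of DHSs assigned to each of the 10 genes (vertical axis) at each stage (horizontal axis), with darker red for more DHSs and a black box where a DHS lies within 1 kb of a TSS. The MAC column holds from 1 DHS at Cd68 and Lyz1 to 9 at Msr1, and no gene has more than 2 in any earlier stage.

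Promoters showed 4 kinds of history. Lyz2, Adgre1, Mrc1 and Msr1 had a DHS within 1 kb of a TSS in MAC and in no other stage, a pattern found at 1.72% of all protein-coding genes. Cd68 and Mertk had a promoter DHS in all 5 stages, as had 42.0% of all genes. Cd14 had one in HB, HE, HP and MAC. Lyz1, Marco and Cd36 had none in any stage. The shares of all genes with the pattern of Cd14, or with no promoter DHS in any stage, were not counted. A promoter DHS was thus found at 2 of 10 genes in MES (55.5% of all genes) and at 3 in each of HB (57.1%), HE (59.9%) and HP (48.6%). MAC had 7 (48.7%). The 4 genes open in MAC and in no other stage were also those open in MAC and not in HP, a contrast met by 5.21% of all genes.

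Of the 53 regions, 39 (73.6%) were open in MAC alone, against 31.0% of all regions. Counted among the 44 regions open in MAC, the MAC-only share was 88.6% (95% Wilson interval 76.0 to 95), against 57.1% of all regions open in MAC in the nuclear genome. Of the same 44 regions 3 (6.82%, 2.35 to 18.2) were also open in HP, against 31.3% of all regions open in MAC, and 4 (9.09%, 3.59 to 21.2) were also open in HE, against 37.8%. Such intervals cover counting error only and treat as independent regions that lie beside the same gene. At least 1 MAC-only region was assigned to 9 of 10 genes (37.7% of all genes), all but Cd68, and at least 3 to 6 genes (10.9%), which were Msr1, Marco, Cd36, Adgre1, Mrc1 and Cd14. With the deposited intervals merged directly, Cd14 had 2 and 5 genes had at least 3. Regions open in HE alone numbered 4, at Mrc1 and Cd36, so 2 of 10 genes had one, against 28.1% of all genes.

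**Figure D2:**
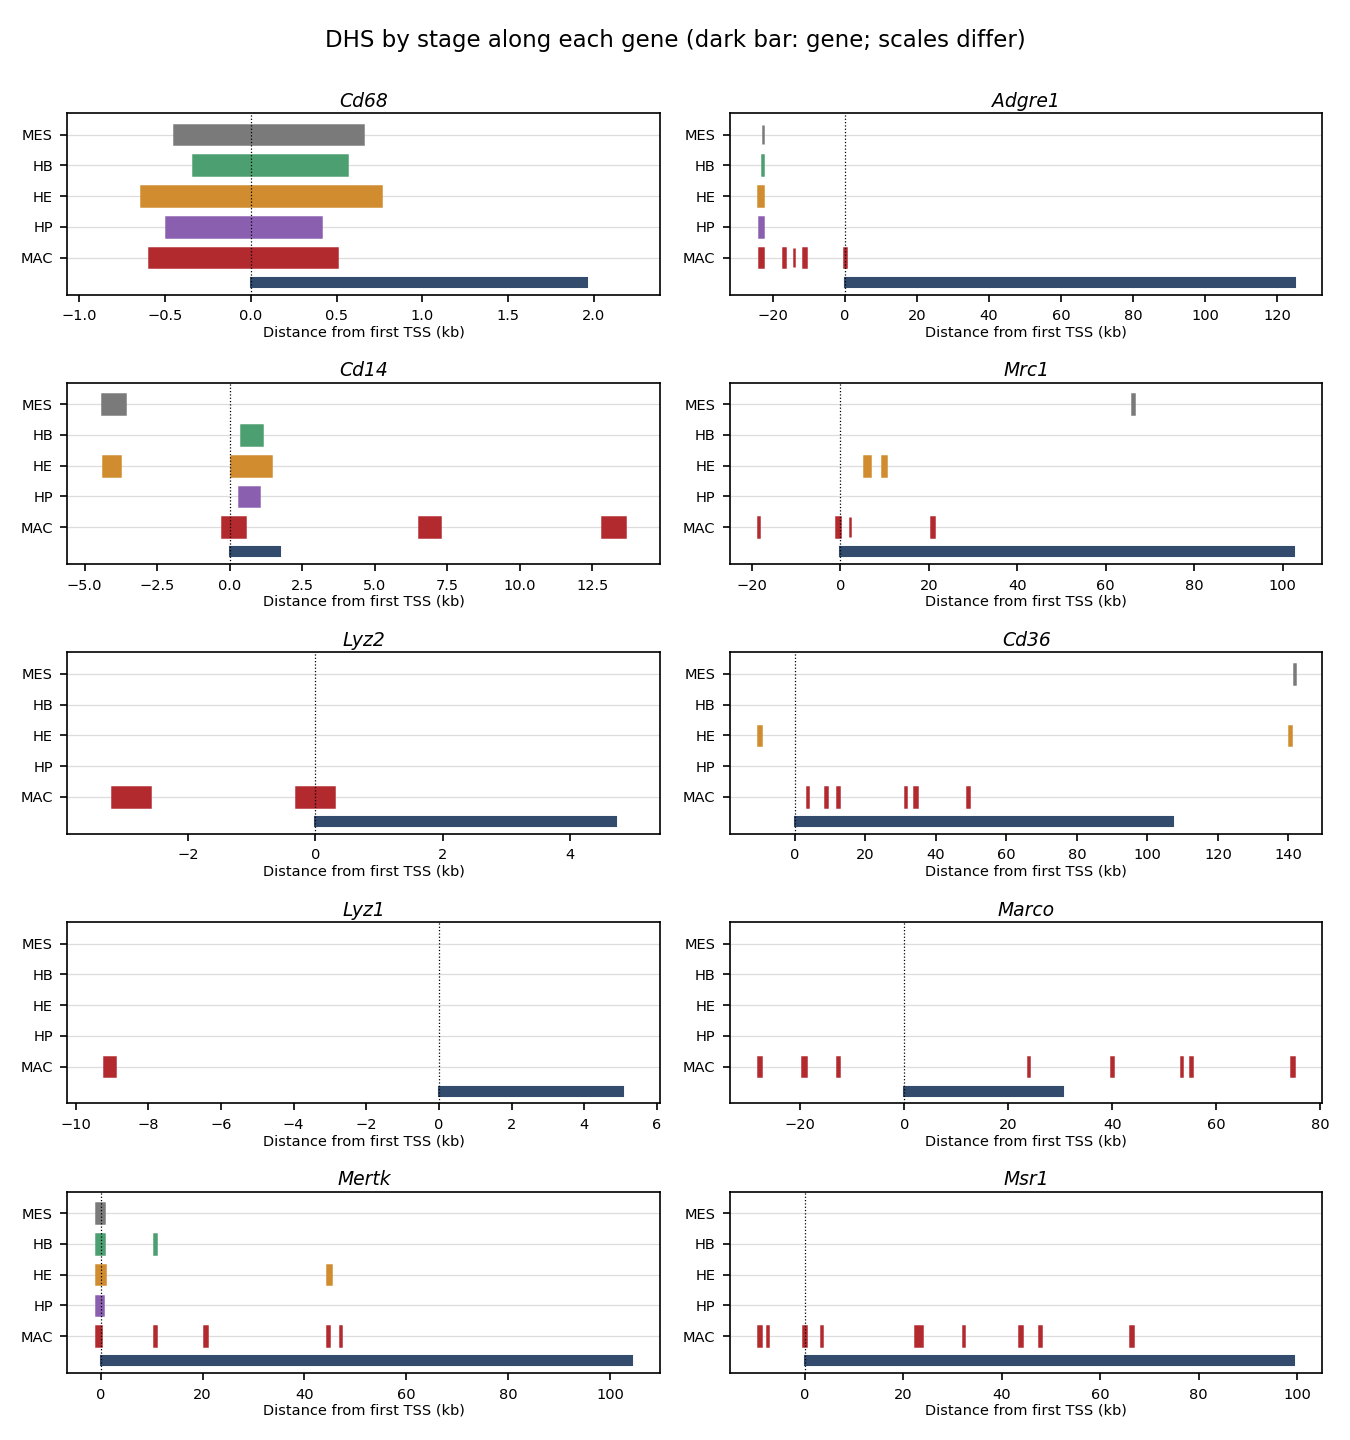
DHSs of each stage (rows, coloured boxes at their deposited width) along each of the 10 genes, placed by distance in kb from the most upstream TSS of curated mRNAs, with the gene as a dark bar and upstream to the left. Marco and Msr1 have DHSs in the MAC row alone, 8 and 9 of them, while the Cd68 promoter has a DHS at the same place in all 5 rows.

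CD68 is a heavily glycosylated protein of the lysosomal membrane, and its gene (chr11:69664213-69666170, minus strand, mm10) was the one without a MAC-only region. It had 1 DHS in each list, over the TSS each time, and its width from MES to MAC was 1100, 900, 1400, 900 and 1100 bp. The middles lay between -46 bp (upstream) and 114 bp (downstream) of the TSS, so all 5 overlapped and merged into 1 region. The MAC interval, chr11:69665667-69666766, was no wider than that of MES. The space in which Cd68 is the nearest gene is 4.9 kb, the smallest of the 10, so a more distant element would have been assigned to a neighbouring gene.

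The RefSeq promoter (GRCm38.p6, chr11:69666121-69666420, minus strand, 300 bases around the TSS) is shown because its chromatin was open in each stage. Capitals, here and in the sequences that follow, mark matches on either strand to 6 consensus motifs, namely GAGGAA for PU.1, then TTGCNNAA for C/EBP, with TGANTCA for AP-1, and TGTGGT for RUNX, followed by AGATAA for GATA and CATTCC for TEAD. A match is a description of letters, not of a bound factor.
Cd68: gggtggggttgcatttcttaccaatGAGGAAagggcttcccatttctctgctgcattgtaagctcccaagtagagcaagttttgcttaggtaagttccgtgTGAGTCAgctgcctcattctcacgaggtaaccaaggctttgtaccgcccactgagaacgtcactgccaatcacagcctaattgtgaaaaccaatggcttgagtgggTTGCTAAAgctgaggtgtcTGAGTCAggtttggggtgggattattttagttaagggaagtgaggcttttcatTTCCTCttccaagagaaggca
The window held 5 matches, 2 for PU.1 at positions -225 and 29, 2 for AP-1 at -149 and -24, and 1 for C/EBP at -43, counted from the TSS at 0 to the left end of the match. Of 32851 RefSeq promoter windows of this length, 28.3% held a PU.1 match, 7.81% an AP-1 match and 10.8% a C/EBP match.

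Lyz2 and Lyz1 encode the M and P forms of lysozyme and lie next to each other on the minus strand of chromosome 10, with their TSS 10.6 kb apart. Lyz2 (chr10:117277541-117282272) had 2 DHSs in MAC and none in any earlier stage. The promoter DHS, chr10:117281981-117282580, was 600 bp wide with its middle at -8 bp, and the other, chr10:117284881-117285480, was also 600 bp wide and lay at -2.9 kb, 2.6 kb from the 3' end of Lyz1. Lyz1 (chr10:117287795-117292868) had 1 DHS, chr10:117301781-117302080, of 300 bp at -9.1 kb in MAC, and none within 1 kb of its TSS at any stage. The upstream DHS of Lyz2 sits between both TSS, 7.7 kb from that of Lyz1, and went to Lyz2 as the nearer.

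The promoters of both lysozyme genes are printed because they are near-copies with different listings.
Lyz2: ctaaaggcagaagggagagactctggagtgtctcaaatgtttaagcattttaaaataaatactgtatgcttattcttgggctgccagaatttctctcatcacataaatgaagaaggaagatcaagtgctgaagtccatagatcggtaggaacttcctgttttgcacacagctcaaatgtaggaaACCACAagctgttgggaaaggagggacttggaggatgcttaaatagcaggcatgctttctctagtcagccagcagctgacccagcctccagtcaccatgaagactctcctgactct
Lyz1: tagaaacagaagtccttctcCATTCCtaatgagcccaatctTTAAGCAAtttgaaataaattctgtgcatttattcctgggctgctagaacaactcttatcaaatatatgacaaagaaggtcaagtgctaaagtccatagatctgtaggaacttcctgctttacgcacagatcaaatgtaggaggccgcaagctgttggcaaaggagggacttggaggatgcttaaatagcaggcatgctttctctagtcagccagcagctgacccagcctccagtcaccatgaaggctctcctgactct
The Lyz2 window is chr10:117282223-117282522 and the Lyz1 window chr10:117292819-117293118, both on the minus strand of GRCm38.p6 and from RefSeq. In a global alignment 254 of 310 columns (81.9%) were identical, against 51.3% for the unrelated pair of Mrc1 and Lyz2. The Lyz2 window held a RUNX match at -66 (16.8% of all promoter windows hold one), and the Lyz1 window a TEAD match at -230 (14.7%) and a C/EBP match at -209 (10.8%). The authors kept uniquely placed reads, so words of the read length of 50 bases were counted in the genome. Of the 1951 words in the 2 kb around the TSS, 92.6% at Lyz2 and 89.9% at Lyz1 occurred once, and in the central 500 bp the share was 91.8% at both. Over the other 8 genes the share in 2 kb ran from 92.8% at Cd68 to 100% at Marco, Cd14, Cd36 and Mertk. The part of read placement in the listings was not tested.

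MSR1, MARCO and CD36 bind oxidised or acetylated lipoproteins and bacterial surfaces, and their genes held 23 of the 44 DHSs in MAC. Msr1 (chr8:39543232-39642750, minus strand) had 9 DHSs in MAC and none in MES, HB, HE or HP, and all 9 were MAC-only regions. As many MAC-only regions were assigned to 175 of 21774 genes (0.804%). One lay over the TSS (chr8:39642426-39643025, 600 bp), 2 lay upstream at -7.5 and -9.2 kb, and the other 6 lay in introns at 3.5, 23.1, 32.2, 43.9, 47.8 and 66.4 kb from the first TSS. The intronic DHS at 23.1 kb, chr8:39618826-39620325, was 1500 bp wide, the widest of the 44, and the others ran from 200 to 600 bp. In the central 500 bp around its TSS, 91.4% of the 50-base words occurred once in the genome.

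Marco (chr1:120474538-120505024, minus strand) had 8 DHSs in MAC and none in the earlier stages, without one at its promoter. As many MAC-only regions were found at 262 genes (1.20%). The nearest to its TSS was at -12.8 kb, followed by -19.2 and -27.8 kb upstream. Only 1 lay inside the gene, in an intron at 24 kb, and 4 lay beyond its 3' end at 39.9, 53.3, 55.2 and 74.7 kb, the last inside an intron of the lncRNA gene Gm46154. Widths ran from 200 to 700 bp, with the widest at -19.2 kb (chr1:120523915-120524614).

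Cd36 (chr5:17781690-17888959, minus strand) had 1 DHS in MES, 2 in HE and 6 in MAC, and none in HB or HP. The 6 DHSs of MAC all lay in introns, at 3.6, 8.9, 12.1, 31.5, 34.3 and 49.2 kb from the first of its 9 annotated TSS, and were 200 to 900 bp wide. None came within 1 kb of any TSS, the closest being 3.4 kb from one. The DHSs of the earlier stages lay outside the gene. HE had 1 at -10.1 kb and 1 at 140.5 kb, and MES had 1 at 141.7 kb, measured from the first TSS, and no region was shared between stages. As many MAC-only regions were found at 594 genes (2.73%).

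For these receptors, whose DHSs lay mostly away from the promoter, the 200 bases at the centre of the widest MAC-only DHS outside the promoter are shown on the plus strand of GRCm38.
Msr1, 23.1 kb, chr8:39619476-39619675: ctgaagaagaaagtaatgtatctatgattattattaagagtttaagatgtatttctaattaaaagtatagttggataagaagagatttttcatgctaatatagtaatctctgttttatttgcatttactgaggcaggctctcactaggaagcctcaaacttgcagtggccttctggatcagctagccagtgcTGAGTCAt
Marco, -19.2 kb, chr1:120524165-120524364: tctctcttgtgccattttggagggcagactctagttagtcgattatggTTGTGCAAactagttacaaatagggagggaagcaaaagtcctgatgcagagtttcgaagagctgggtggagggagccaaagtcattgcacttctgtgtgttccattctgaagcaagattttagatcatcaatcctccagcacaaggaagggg
Cd36, 34.3 kb, chr5:17854596-17854795: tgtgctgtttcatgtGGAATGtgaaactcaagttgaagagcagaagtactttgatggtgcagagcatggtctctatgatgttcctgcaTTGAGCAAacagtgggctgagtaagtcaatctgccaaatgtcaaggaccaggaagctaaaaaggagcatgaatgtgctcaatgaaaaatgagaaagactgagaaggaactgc
The Msr1 sequence held an AP-1 match, the Marco sequence a C/EBP match and the Cd36 sequence a C/EBP and a TEAD match. In the central 200 bp of all regions open in MAC, 16.7% held an AP-1 match, 12.4% a C/EBP match and 8.97% a TEAD match. None of these 3 sequences held a PU.1 match, which 31.0% of those regions did. In the central 500 bp of the same regions, that of Cd36 held 1 PU.1 match and those of Msr1 and Marco held none.

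MRC1, the mannose receptor, binds sugars on microbes and glycoproteins. Its gene Mrc1 (chr2:14229414-14332023, plus strand) had 1 DHS in MES, 2 in HE and 4 in MAC, each in a region of its own. The promoter DHS of MAC, chr2:14228525-14229324, was 800 bp wide, with its middle at -490 bp. The other 3 of MAC lay at -18.5 kb in an intron of Tmem236, and in introns of Mrc1 at 2.2 and 20.9 kb. Both DHSs of HE lay between these, in introns at 6.1 kb (1200 bp) and 10.0 kb (1000 bp), and were wider than any DHS of MAC at the gene. The DHS of MES lay at 66.1 kb and was 300 bp wide. HE and MAC thus had DHSs at different places in introns of the same gene. The RefSeq promoter, chr2:14229164-14229463 on the plus strand, is printed because a DHS was listed there in MAC alone.
Mrc1: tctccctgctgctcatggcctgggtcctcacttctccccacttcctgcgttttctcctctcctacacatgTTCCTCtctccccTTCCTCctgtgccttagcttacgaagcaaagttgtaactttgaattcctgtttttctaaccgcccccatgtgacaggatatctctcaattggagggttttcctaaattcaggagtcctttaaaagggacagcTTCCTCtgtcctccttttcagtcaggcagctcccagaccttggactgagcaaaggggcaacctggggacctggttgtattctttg
It held 3 PU.1 matches, at -180, -167 and -35, of which the first 2 lie within the deposited interval and the third lies past its end.

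MERTK is a receptor tyrosine kinase that, through bridging proteins, binds phosphatidylserine on dying cells. Mertk (chr2:128698915-128803162, plus strand) had a promoter DHS in all 5 stages, with widths from MES to HP of 1400, 1500, 1800 and 1300 bp and, at the narrowest, 1000 bp in MAC. All 5 began within 128697970 to 128698091 on chromosome 2. Introns had a DHS at 10.6 kb from the first TSS in HB and MAC and another at 44.7 kb in HE and MAC. MAC-only regions lay at 20.6 and 47.1 kb. Mertk is the sole gene of the 10 with intronic regions shared between MAC and an earlier stage. Its promoter, chr2:128698665-128698964 on the plus strand, is printed beside that of Cd68 as the other one open throughout.
Mertk: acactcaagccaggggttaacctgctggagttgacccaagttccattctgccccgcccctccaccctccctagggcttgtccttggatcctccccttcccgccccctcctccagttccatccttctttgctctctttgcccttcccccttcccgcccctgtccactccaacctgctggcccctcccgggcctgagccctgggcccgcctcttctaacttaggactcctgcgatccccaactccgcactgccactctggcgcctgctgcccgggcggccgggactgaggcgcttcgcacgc
It held no match to the 6 motifs and had a GC content of 66.0%, against 47.7% at Cd68, 50.3% at Mrc1 and 44.3% at both Lyz2 and Lyz1.

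**Figure D3:**
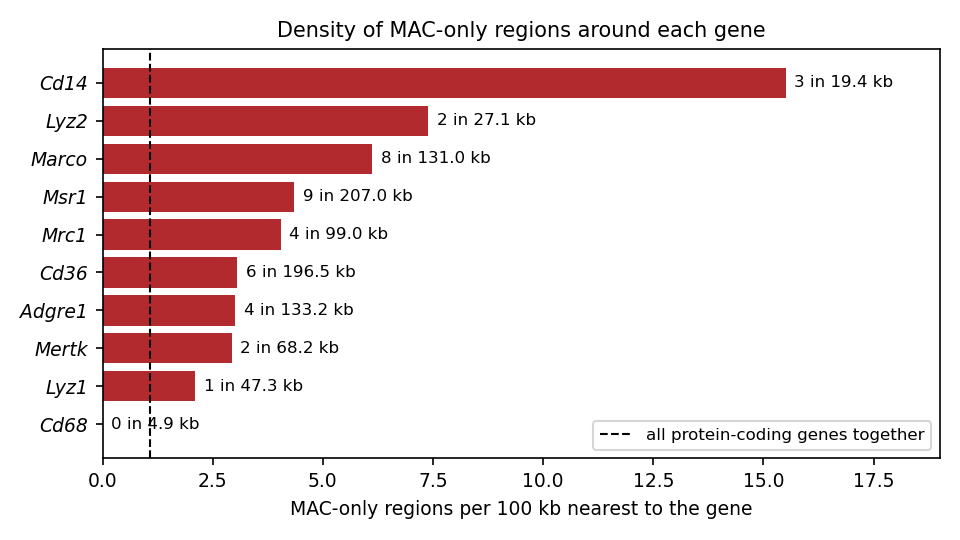
MAC-only regions per 100 kb of the space in which each gene is the nearest protein-coding gene, with the number of regions and the size of the space written beside each bar and a dashed line at the value for all protein-coding genes, 1.08. The bars of 9 genes lie above the line, from 2.11 at Lyz1 to 15.5 at Cd14, and Cd68 has none in 4.9 kb.

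A gene in a sparse neighbourhood is offered more sites by a nearest-gene rule, so the regions were also counted per length. The 10 genes together were nearest to 933.6 kb and held 4.18 MAC-only regions per 100 kb, against 1.08 for all genes together. Msr1 and Cd36, with 207.0 and 196.5 kb, had 4.35 and 3.05 per 100 kb, and 10.0% and 16% of 21562 genes with at least 1 kb of such space were as dense. Marco had 6.11 (5.36% of genes as dense), Lyz2 7.38 (3.48%), Mrc1 4.04 (11.2%), Adgre1 3.00 (16.3%), Mertk 2.93 (16.7%) and Lyz1 2.11 (22.2%). By density the order differed from that by number, with Cd14 first at 15.5 (0.413%), from 3 regions in 19.4 kb. One of these 3 is the promoter, which is MAC-only as a 500-bp window alone, and with the deposited intervals Cd14 had 2 regions, or 10.3 per 100 kb (1.22%). By their middles, of the 44 DHSs of MAC 22 lay inside the gene, 16 upstream of it and 6 beyond its 3' end. The same split was not counted over all DHSs of MAC.

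ADGRE1 is the F4/80 antigen, an adhesion G protein-coupled receptor long used to identify mouse macrophages. Adgre1 (chr17:57358581-57483529, plus strand) had 1 DHS in each of MES, HB, HE and HP and 5 in MAC. The single DHS of the earlier stages lay about 23 kb upstream each time, with a width from MES to HP of 200, 400, 1600 and 1200 bp, and MAC had one of 1300 bp there (chr17:57334688-57335987). These 5 intervals overlap, yet as 500-bp windows they formed 2 regions, 1 open in MES and HB at -22.8 kb and 1 open in HE, HP and MAC at -23.4 kb. The other DHSs, at -16.9, -14.2 and -11.3 kb and over the TSS (chr17:57358288-57358987, 700 bp), were listed in MAC alone. No other DHS inside the gene, which is 124.9 kb long, was assigned to it.

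CD14 is a co-receptor that hands lipopolysaccharide to the TLR4 complex. Cd14 (chr18:36725064-36726815, minus strand) had 1 DHS in each of MES, HB and HP, 2 in HE and 3 in MAC. The promoter DHSs of the earlier stages had their middle in the coding exon, 755 bp from the TSS in HB, 732 bp in HE and 666 bp in HP, with widths of 700, 1400 and 700 bp. That of MAC (chr18:36726272-36727071, 800 bp) had its middle at 144 bp and reached across the TSS. The HB, HE and HP intervals each overlap that of MAC, but the 500-bp windows of MAC and the earlier stages stayed apart, so that the MAC promoter region counted as MAC-only. With the deposited intervals merged directly, 38 rather than 39 regions were MAC-only, of 51. MAC also had DHSs beyond the 3' end of the gene, at 6.9 and 13.2 kb from its TSS, the latter in an intron of the lncRNA gene Gm41699. An element at -4.0 kb was listed in MES and HE and not in MAC.

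Width is the only graded property of a DHS in these lists. The DHSs of the 10 genes had a median width of 550 bp in MES, against 800 bp for the whole list. For HB it was 700 against 900 bp, for HE 1100 against 1200 bp, for HP 1050 against 900 bp and for MAC 600 bp on both counts. In MAC the 7 promoter DHSs had a median of 800 bp, between 600 and 1100 bp, and the other 37 a median of 500 bp, between 200 and 1500 bp. Of the 39 MAC-only regions 34 (87.2%) were over 2 kb from any protein-coding TSS, against 91.1% of all MAC-only regions. By their middles 17 of the 39 lay in an intron of the gene and 16 were intergenic. The shares of all MAC-only regions at such places were not counted. None of the 39 was CpG-rich (95% interval up to 8.97%), against 0.884% of all MAC-only regions.

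The 6 motifs were then sought in the central 500 bp of the 44 regions open in MAC. PU.1 was present in 26 (59.1%, 44.4 to 72.3), against 53.0% of all regions open in MAC, RUNX in 14 (31.8%, 20.0 to 46.6) against 34.5%, and AP-1 in 16 (36.4%, 23.8 to 51.1) against 26.7%, each within the interval. C/EBP was present in 17 (38.6%, 25.7 to 53.4) against 23.8%, GATA in 15 (34.1%, 21.9 to 48.9) against 17.7% and TEAD in 16 (36.4%, 23.8 to 51.1) against 22.3%, each with the overall share below the interval. The intervals again treat regions beside the same gene as independent. They make no allowance for reading 6 motifs in several sets of regions, so a share outside an interval is a description and not a test. The 44 regions were poorer in GC, with a median of 43.2% against 49.4%, and the part of base composition in these shares was not tested. Among regions over 2 kb from a TSS, C/EBP stood at 37.8% (24.1 to 53.9) against 28.1%, with the overall share within the interval. TEAD stood at 37.8% (24.1 to 53.9) against 24.4%, just within it. GATA stood at 35.1% (21.8 to 51.2) against 21.7%, with the overall share just below the interval. In the central 200 bp, GATA at 13.6% (6.4 to 26.7) against 6.54% and TEAD at 13.6% against 8.97% had the overall share within the interval, and C/EBP at 25.0% (14.6 to 39.4) against 12.4% had it below. Among MAC-only regions, GATA stood at 38.5% (24.9 to 54.1) against 20.7%, with the overall share below the interval. C/EBP at 41% (27.1 to 56.6) against 30.3% and TEAD at 35.9% (22.7 to 51.6) against 23.4% had it within. By gene, PU.1 was found in 4 of 5 regions at Adgre1, 5 of 8 at Marco, 4 of 6 at Cd36 and 2 of 9 at Msr1, where RUNX was found in 5 of 9. C/EBP was found in 4 of 8 regions at Marco and 4 of 6 at Cd36, and AP-1 in all 3 at Cd14. GATA was found in 4 of 8 regions at Marco and 3 of 9 at Msr1, and TEAD in 4 of 9 at Msr1, 3 of 5 at Adgre1 and 3 of 6 at Cd36. Matches to different motifs did not overlap in any of the 44 regions.

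**Figure D4:**
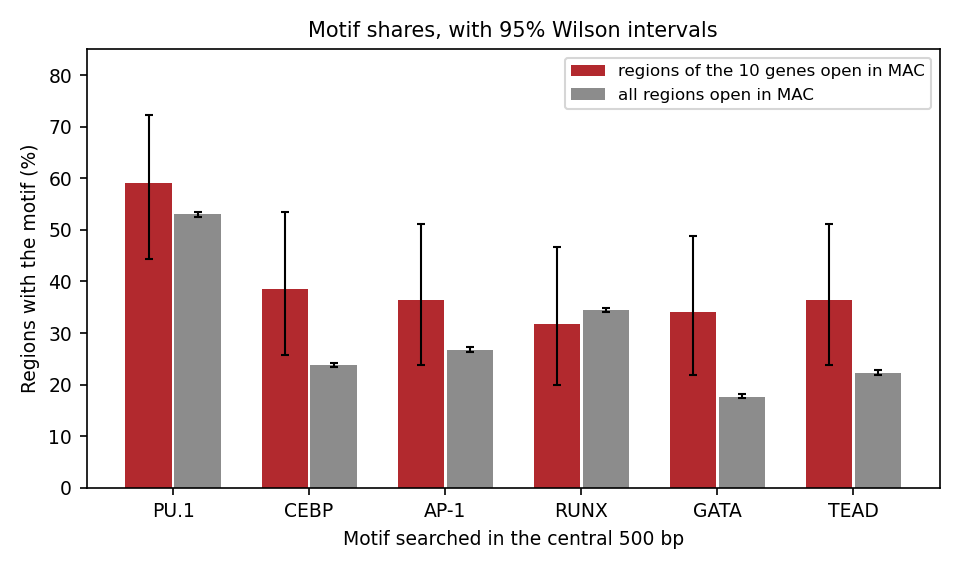
Share of regions with each of 6 motifs in the central 500 bp, for the 44 regions of the 10 genes open in MAC (red) and for all regions open in MAC (grey), with 95% Wilson intervals as bars. The PU.1 bars stand highest, at 59.1% and 53.0%, and the grey value lies below the interval of the red bar for C/EBP, GATA and TEAD.

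To see whether genes of like function had the same history, 4 further lists were read in the same way. From MES to MAC, 55.5%, 57.1%, 59.9%, 48.6% and 48.7% of all protein-coding genes had a promoter DHS. Of 11 lectin receptor genes, 2, 1, 2 and 1 had a promoter DHS in MES, HB, HE and HP, at Mrc2 or Ly75, and 5 had one in MAC, all 5 of them in MAC alone (1.72% of all genes did), namely Clec7a, which binds fungal glucans, Clec4e, Clec10a, Clec4a2 and Siglec1, the last of which had most regions open in MAC of its list, 5. Of 14 other scavenger receptor genes, 5, 4, 8, 4 and 3 had a promoter DHS in MES, HB, HE, HP and MAC, and Olr1, a receptor of oxidised lipoprotein, had it in MAC alone, while Colec12 had most regions open in MAC, 14. Of 13 genes for uptake of apoptotic cells, 12, 12, 11, 2 and 6 had a promoter DHS in these stages and none in MAC alone, and Elmo1, which activates Rac during engulfment, had most regions open in MAC, 27. Elmo1 also had 14 DHSs in HE. Of 9 genes of lipopolysaccharide sensing, 3, 3, 6, 4 and 6 had a promoter DHS, with Cd180 in MAC alone, and Tlr4 had most regions open in MAC, 11. The highest counts of these lists were not set against the space in which each gene is the nearest. MAC-only regions were found at 9 of 11, 11 of 14, 11 of 13 and 6 of 9 genes of these lists, beside 9 of the 10 genes described here and 37.7% of all genes.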

How the data were processed

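DNaseI-seq of 5 stages was used, as 1 deposited list of DHSs per stage. According to the study's methods, the authors used CutAdapt to trim reads of 50 bases and Bowtie to align them to mm10. Reads with 1 placement were kept, Picard took out duplicates, and DFilter called DHSs at a bin size of 100 bp. No version was given in the sources used here. The submitters' processing notes also name HOMER. Each deposited row gives the bounds of a DHS in base pairs without score or count, so DHS widths are the sole graded value. The read totals that the study gives were not used here.

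The annotation and sequence were those of RefSeq GRCm38.p6, the build of mm10. Assignment, merging and motif counts were done in Python 3.11.15 with pandas 2.3.3, numpy 2.4.6, pyfaidx 0.9.0.4, samtools 1.23.1 and Biopython 1.88, Wilson intervals in statsmodels 0.14.6, and assignment and merging were tested on simulated sites. A region was CpG-rich at a GC content of at least 50% and an observed to expected CpG ratio of at least 0.6. RefSeq promoters were found for Cd68, Lyz1, Lyz2, Mrc1, Marco, Cd36 and Mertk.

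The 10 genes and the further lists were chosen with earlier results of these data known. All 10 are named, and of each further list the genes with a promoter DHS in MAC alone and the gene with most regions open in MAC. The 19 alternatives changed the TSS reach, the TSS set, the 100-kb limit, the nearest-gene measure, the merging, the width of DHSs admitted and the motif window. The authors' fold changes or p-values were not part of the files used.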

Additional observations from a re-analysis of the deposited data

How the results depend on the processing

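The counts of genes with a promoter DHS stayed within 1.5 times the reported count in each stage under every alternative run for them. Single genes did change. With a reach of 100 bp Cd14 had a promoter DHS in HE and MAC only, and the same held with DHSs at or above the median width of their list. With the lists cut to their widest DHSs, at the length of the HP list, Msr1 had none. Admitting only wide DHSs lowered the totals by construction. At or above the median width, 3 DHSs remained in MES, 2 in HB, 5 in HE and 25 in MAC, in 28 regions, of which 22 were MAC-only, 2 HE-only and 3 open in 2 or more stages. With the widest DHSs at the length of the HP list, 3 remained in MES, 3 in HB, 5 in HE and 19 in MAC, in 22 regions, of which 16 were MAC-only, 1 HE-only and 4 open in 2 or more stages. In the central 200 bp, which hold fewer letters, PU.1 was found in 34.1% of the regions open in MAC (31.0% of all), C/EBP in 25.0% (12.4%), AP-1 in 20.5% (16.7%), RUNX in 15.9% (17.4%), GATA in 13.6% (6.54%) and TEAD in 13.6% (8.97%). The other limits, gene measures and mergings left the counts within 1.5 times the reported ones, with 36 to 40 MAC-only regions. The lists hold no read counts and the study's read totals were not used, so what depth limits was not measured. No paired analysis was possible because each stage had 1 list, and for the same reason no replicate could be left out.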
